A study of Arabidopsis thaliana with 6 samples.

Results

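The circadian clock genes of Arabidopsis were examined in seedlings overexpressing sORF2146. This is a short open reading frame whose physiological role the series asks about. The set holds 33 genes, chosen by name and locus as the known clock components and their close outputs, out of 35475 gene identifiers on the array. It covers the MYB-like factors CCA1, LHY and RVE1 to RVE8, the LNK coactivators, the pseudo-response regulators, the evening complex, GI and the ZTL family, CHE, TIC, the RNA-binding proteins GRP7 and GRP8, and COR27 and COR28. Each gene had 1 probe.

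RNA came from whole seedlings of 14 days, either sORF2146ox transgenic plants (3 arrays) or plants transformed with the empty pMDC32 vector (3 arrays). All plants stood on half-strength MS medium with 14 hours of light and 10 hours of darkness a day. The promoter of the transgene, the number of independent lines and the hour of harvest are not given in the sources used here. In whole seedlings, fewer cells of a type and less RNA per cell cannot be told apart.

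The plant clock is a set of transcriptional loops in which factors made at successive times of day repress or activate one another. CCA1 and LHY accumulate at dawn and repress evening genes such as TOC1. The pseudo-response regulators follow one after another through the day and repress CCA1 and LHY, and the evening complex of ELF3, ELF4 and LUX represses PRR9, PRR7 and other genes at night. RVE4, RVE6 and RVE8, with the LNK proteins as coactivators, activate afternoon and evening genes. In leaves the clock sets the time of photosynthesis, growth and, through GI and FKF1, photoperiodic flowering. No probe or gene sequence is shown.

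Levels are given as the log2 scaled signal, which is the log2 of the spot's processed signal minus that of the 75th percentile of its array. A value of 0 is therefore the signal at that percentile, and a difference of 1 between groups is a doubling. The percentile ran from 817 to 1170 over the arrays and was higher on each control array than on any overexpressor array. Unscaled signals therefore make rises in the overexpressor smaller and falls larger than scaled ones do. Differences are sORF2146ox minus vector control, with the standard error (SE) of limma, n = 3 arrays per group. A gene passed where limma's p-value, adjusted by Benjamini-Hochberg over all 23394 genes tested, was under 0.05. All 33 clock genes entered the test, and 32 were well above background on all 6 arrays.

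Of the 33 clock genes, 2 rose and 3 fell in the overexpressor. LNK2 and ZTL rose, while COR27, COR28 and RVE2 fell. COR27 was above background in the control alone. Where all 6 arrays had to be above background, 2 clock genes rose and 2 fell of the 32 tested. In that setting 633 of all 22427 genes tested rose and 572 fell. With the main filter the rises were 6.1% of the clock genes, where 2.51% of all genes tested rose. The falls were 9.1%, where 2.65% of all genes tested fell. The central genes CCA1, LHY, TOC1 and GI did not pass, and their differences lay between -0.26 and -0.02. The groups did not overlap for 15 clock genes, where 40.6% of all genes tested did not. Of these, 7 were higher in the overexpressor (21.2%, against 23.0% of all genes tested) and 8 were lower (24.2%, against 17.6%), so such separation was about as common as elsewhere on the array. At an unadjusted p under 0.05 there were 12 clock genes (36.4%), against 30.8% of all genes tested. Differences above 0 were found for 15 clock genes (45.5%), against 54.0% of all genes tested. The median absolute difference was 0.24 for clock genes and 0.22 for all genes tested.

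**Figure D1:**
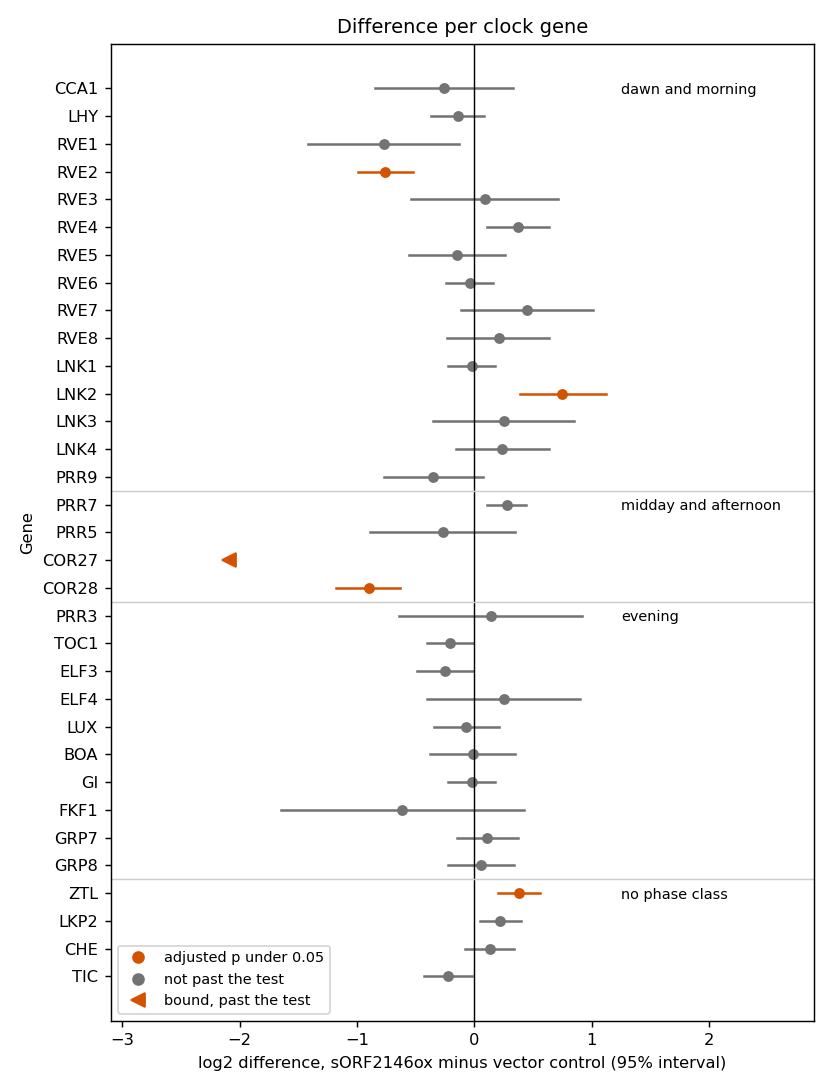
Log2 difference per clock gene, sORF2146ox minus vector control (x axis), with its 95% interval, for the 33 genes by phase class (y axis). Orange marks genes past the test. The triangle for COR27 is a bound of -2.09 with no interval, as its spot was above background in the control alone, and most other intervals cover or come near 0.

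The plot of differences by gene shows COR27 apart from the rest. COR28 came next at -0.90, near RVE1 at -0.77 and RVE2 at -0.76. COR27 and COR28 encode a pair of related small proteins, induced by cold and by light, that lower the expression of PRR5 and TOC1. COR27 (AT5G42900) had scaled signals of -7.37, -6.67 and -7.21 in the overexpressor, against -4.81, -4.77 and -4.45 in the vector control. Its spot was well above background on 0 overexpressor arrays and on all 3 control arrays. The unscaled signals were 6.01, 8.05 and 6.20 in the overexpressor and 41.6, 40.9 and 50.1 in the control. COR27 thus fell by at least 4.24-fold, a bound that sets the control mean against the overexpressor mean with each array raised, where lower, to its lowest signal well above background (limma adjusted p = 0.015). It entered the test through the control arrays alone, the group in which it is high, so its place in the count of falls supports nothing further. With no filter on dim probes its adjusted p was 0.03, and with all 6 arrays required above background it was not tested.

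COR28 (AT4G33980) was above background everywhere, with -4.82, -4.51 and -4.65 in the overexpressor and -3.65, -3.77 and -3.85 in the control. The groups were separated by more than the spread within either of them. COR28 fell by 0.90 (SE 0.11, limma adjusted p = 0.026). Both genes gave dim spots, and with local background subtracted and an offset of 50 added, which draws dim values together, the differences were -0.31 for COR27 and -0.23 for COR28 and neither passed.

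PRR5 and TOC1, which COR27 and COR28 are known to repress, did not pass. PRR5 (AT5G24470), an afternoon repressor of the dawn genes, had 0.43, 1.11 and 1.37 in the overexpressor, against 1.16, 1.16 and 1.41 in the control. Overexpressor replicate 1 was the low array, and the difference of -0.27 (95% interval -0.89 to 0.35) was -0.0014 without it. TOC1 (AT5G61380), the evening repressor of CCA1 and LHY, had -1.65, -1.63 and -1.57 in the overexpressor, against -1.49, -1.39 and -1.35 in the control. The groups did not overlap, with a difference of -0.21 (SE 0.08, limma adjusted p = 0.14).

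PRR7, PRR9 and PRR3 complete the family. PRR7 (AT5G02810), the midday member, had 1.78, 1.76 and 1.72 in the overexpressor and 1.48, 1.45 and 1.50 in the control. Its groups were narrow and separate after scaling but overlapped before it, with unscaled signals of 3424, 2764 and 3018 in the overexpressor and 3259, 3052 and 3106 in the control. After scaling, the difference of 0.28 (SE 0.07) missed the threshold (limma adjusted p = 0.070). PRR9 (AT2G46790), the morning member, had -1.87, -2.12 and -1.90 in the overexpressor, against -1.36, -1.54 and -1.94 in the control, and its groups overlapped through control replicate 3. Its difference was -0.35 (95% interval -0.77 to 0.07). PRR3 (AT5G60100), which binds and stabilises TOC1, was dim, with a difference of 0.14 and an interval from -0.64 to 0.92.

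Among the dawn MYB-like factors RVE2 was the one of 10 that passed. RVE2 (AT5G37260), also called CIR1, is a circadian gene whose overexpression is known to disturb rhythms. It had -1.88, -1.93 and -1.95 in the overexpressor and -1.07, -1.11 and -1.32 in the control. RVE2 fell by 0.76 (SE 0.09, limma adjusted p = 0.027), a fold of 0.592.

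CCA1 and LHY, the paired dawn repressors, did not pass. CCA1 (AT2G46830) had -1.39, -1.87 and -1.94 in the overexpressor and -1.40, -1.13 and -1.88 in the control. Each group held arrays at both ends of the range, and the difference was -0.26 with an interval from -0.85 to 0.33. LHY (AT1G01060) had 0.01, 0.03 and -0.20 in the overexpressor and 0.07, 0.10 and 0.10 in the control, and its difference of -0.14 had an interval from -0.37 to 0.08. The LHY groups did not overlap, but the gap between them was smaller than the spread of the overexpressor arrays.

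RVE1 (AT5G17300), which links the clock to auxin and growth, had -2.00, -2.03 and -2.66 in the overexpressor, against -1.40, -1.12 and -1.85 in the control. Its difference of -0.77 was as large as that of RVE2, but the spread within the groups was wider (SE 0.26, limma adjusted p = 0.12). RVE4 (AT5G02840), an activator of evening genes, had groups that did not overlap after scaling, though their unscaled signals did, and a difference of 0.37 (SE 0.11, limma adjusted p = 0.090). RVE8 (AT3G09600), the best known of these activators, had 0.50, 0.66 and 0.22 in the overexpressor and 0.51, 0.28 and -0.02 in the control, with a difference of 0.21. Its close relative RVE6 (AT5G52660) differed by -0.04 with an interval from -0.24 to 0.16. RVE7 (AT1G18330), also known as EPR1, differed by 0.45 (SE 0.23), of which control replicate 1, at 1.49 against 2.16 and 2.33, held a large part. Without that array the RVE7 difference was 0.20. RVE3 (AT1G01520) and RVE5 (AT4G01280) differed by 0.09 and -0.15, with overlapping groups.

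The LNK proteins have no DNA-binding domain of their own and act with RVE8. LNK2 (AT3G54500) had 0.63, 0.39 and 0.39 in the overexpressor, against -0.55, -0.07 and -0.24 in the control. Every overexpressor array was above every control array, and LNK2 rose by 0.75 (SE 0.15, limma adjusted p = 0.049), a fold of 1.69. That p lies close to the threshold. Before scaling its signals were 1539, 1071 and 1199 in the overexpressor and 801, 1065 and 929 in the control, which came close without overlapping.

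The other LNK genes did not pass. LNK1 (AT5G64170) had 1.63, 1.58 and 1.48 in the overexpressor and 1.63, 1.61 and 1.50 in the control, a difference of -0.02 with an interval from -0.22 to 0.18. LNK3 (AT3G12320) had 1.41, 1.41 and 1.20 in the overexpressor and 1.45, 1.27 and 0.55 in the control, where replicate 3 was the low array. LNK4 (AT5G06980) had 2.1, 2.22 and 1.90 in the overexpressor and 1.98, 1.99 and 1.52 in the control, again with control replicate 3 lowest. The LNK3 and LNK4 differences were 0.25 and 0.24. Set against the mean of LNK1, LNK3 and LNK4 on the same array, a measure that needs no scaling between arrays, LNK2 was 0.60 higher in the overexpressor. The 3 overexpressor arrays lay above the 3 control arrays in that measure too, which was chosen after the values were seen and was not tested.

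**Figure D2:**
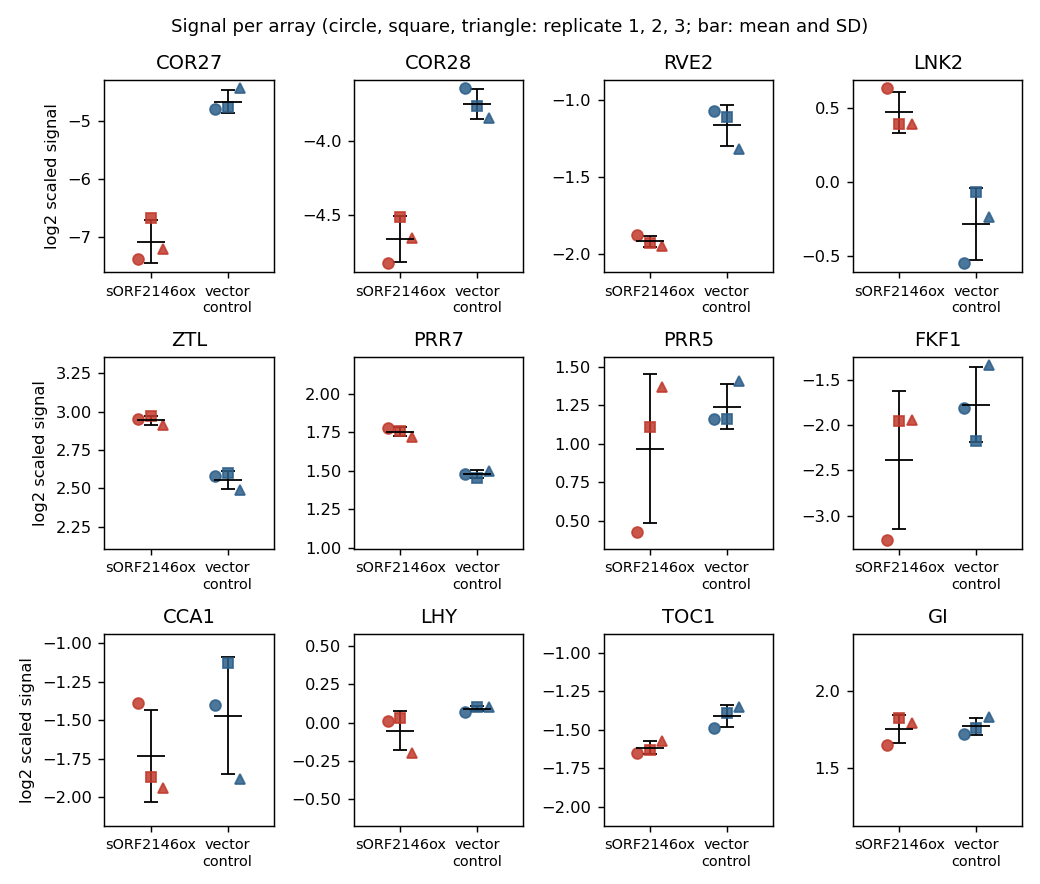
Log2 scaled signal (y axis, a range of its own per gene) of 12 clock genes in sORF2146ox (red, left) and vector control (blue, right). Points are arrays and bars give the mean and SD. COR27, COR28, RVE2, LNK2 and ZTL passed the test, PRR5 and FKF1 have a single low overexpressor array, and the CCA1 and GI arrays overlap.

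ZTL (AT5G57360) is an F-box protein and blue light receptor that targets TOC1 and PRR5 protein for degradation. ZTL had 2.95, 2.97 and 2.91 in the overexpressor, against 2.58, 2.60 and 2.49 in the control. ZTL rose by 0.38 (SE 0.07, limma adjusted p = 0.047), a fold of 1.30. Before scaling its signals were 7680, 6385 and 6887 in the overexpressor and 6989, 6781 and 6189 in the control, which overlap. Added spike-in RNA, the same in all samples, was 0.25 higher in the overexpressor at the median of 8 probes after the same scaling, with a range from -0.10 to 0.38. Set against that median, rises of all genes would be smaller and falls larger.

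LKP2 and FKF1 are the relatives of ZTL, and GI binds all of them. LKP2 (AT2G18915) differed by 0.22 (SE 0.07, limma adjusted p = 0.11) with groups that did not overlap after scaling. Its unscaled signals did overlap, at 514, 406 and 489 in the overexpressor and 528, 483 and 482 in the control. FKF1 (AT1G68050), which removes repressors of CONSTANS in long days, had -3.27, -1.96 and -1.94 in the overexpressor, against -1.81, -2.17 and -1.34 in the control. Overexpressor replicate 1 was again the low array, and the FKF1 difference of -0.62 (95% interval -1.65 to 0.42) was -0.17 without it. GI (AT1G22770) had 1.65, 1.82 and 1.79 in the overexpressor and 1.72, 1.76 and 1.83 in the control, a difference of -0.02 with an interval from -0.22 to 0.18.

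In the evening complex 0 of the 4 genes passed in limma. Of the 4, 1, ELF3, had an unadjusted p under 0.05, against 30.8% of all genes tested. ELF3 (AT2G25930), its scaffold, had -1.81, -1.72 and -1.69 in the overexpressor, against -1.40, -1.43 and -1.65 in the control. The groups did not overlap, and the difference was -0.25 (SE 0.10, limma adjusted p = 0.15). ELF4 (AT2G40080) had 0.98, 1.01 and 0.67 in the overexpressor and 0.11, 0.70 and 1.1 in the control, whose arrays enclose all of the overexpressor values. LUX (AT3G46640), the DNA-binding subunit, had -2.71, -2.54 and -2.52 in the overexpressor and -2.61, -2.61 and -2.34 in the control, a difference of -0.07. BOA (AT5G59570), the close relative of LUX, differed by -0.01.

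GRP7 and GRP8, RNA-binding proteins that form a slave oscillator driven by the clock, had bright spots of which none was saturated. GRP7 (AT2G21660) had 7.0, 7.19 and 7.26 in the overexpressor and 6.93, 7.01 and 7.16 in the control. GRP8 (AT4G39260) had 6.92, 7.28 and 7.12 in the overexpressor and 7.01, 7.01 and 7.13 in the control. Both pairs of groups overlapped, with differences of 0.11 (95% interval -0.15 to 0.37) and 0.06 (-0.22 to 0.34). CHE (AT5G08330), a TCP factor that represses CCA1, differed by 0.13, and TIC (AT3G22380), a nuclear regulator of clock period, by -0.22 (SE 0.08, limma adjusted p = 0.14).

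The clock genes were also grouped by time of peak expression. The dawn and morning class (CCA1, LHY, the RVE and LNK genes and PRR9) had a median difference of -0.02 over 15 genes, with 7 above and 8 below 0. The evening class (PRR3, TOC1, the evening complex, GI, FKF1 and the GRP genes) had a median of -0.02 over 10 genes, with 4 above and 6 below 0. Of these 10, 0 passed the test and 2, TOC1 and ELF3, had an unadjusted p under 0.05, against 30.8% of all genes tested. The midday and afternoon class had a median of -0.59 over 4 genes, with 1 above and 3 below 0. COR27 and COR28 make up 2 of the 4, and the median was -0.27 where COR27 was left out as too dim. The median deviation of this class was -0.64, -0.15 and -0.17 on the overexpressor arrays and 0.31, 0.24 and 0.33 on the control arrays, which do not overlap. That separation rests on COR27 and COR28 together, and COR27 entered through the control arrays alone. For PRR7, PRR5 and COR28 the middle value was 0.11 on overexpressor replicate 3 and 0.05 on control replicates 1 and 2, so the groups overlapped. With COR27 in place of COR28 the middle values on these arrays were the same, and the groups overlapped there too. The median over all genes tested was 0.03. These classes rest on textbook phases, since the sources used here give no time of day for any array.

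**Figure D3:**
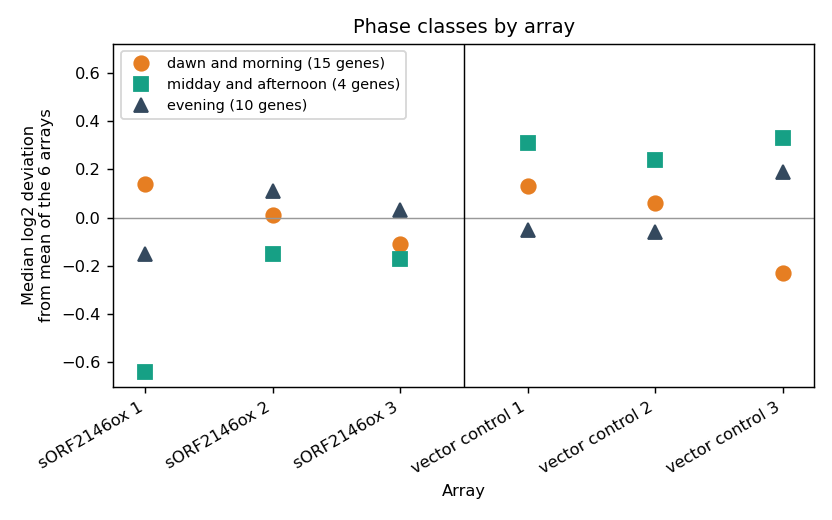
Median log2 deviation of each phase class from the mean of the 6 arrays (y axis), per array (x axis). The dawn class runs from 0.14 on sORF2146ox replicate 1 to -0.23 on vector control replicate 3, and the evening class from -0.15 to 0.19 on the same arrays. The midday class of 4 genes, COR27 and COR28 among them, is below 0 on the 3 sORF2146ox arrays and above it on the 3 vector control arrays. This split rests on COR27 and COR28 together, and COR27 was above background in the control alone.

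Single arrays differed in the balance of dawn and evening genes, as the plot of classes by array shows. Overexpressor replicate 1 had a median deviation of 0.14 for dawn and -0.15 for evening genes. Vector control replicate 3 had -0.23 and 0.19. The other 4 arrays lay between these for both classes, and each group held 1 of the extreme arrays. CCA1 was highest within the overexpressor on replicate 1, where PRR5 and FKF1 were lowest. It was lowest within the control on replicate 3, where PRR5 and FKF1 were highest. LHY did not follow CCA1. Its scaled signal was 0.01 on overexpressor replicate 1 against 0.03 on replicate 2, and 0.10 on control replicate 3 against 0.07 on replicate 1. Whether the hour of harvest differed between samples was not tested. For 15 clock genes control replicate 3 was the control array farthest from the overexpressor mean, for 13 it was replicate 1 and for 5 replicate 2.

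**Figure D4:**
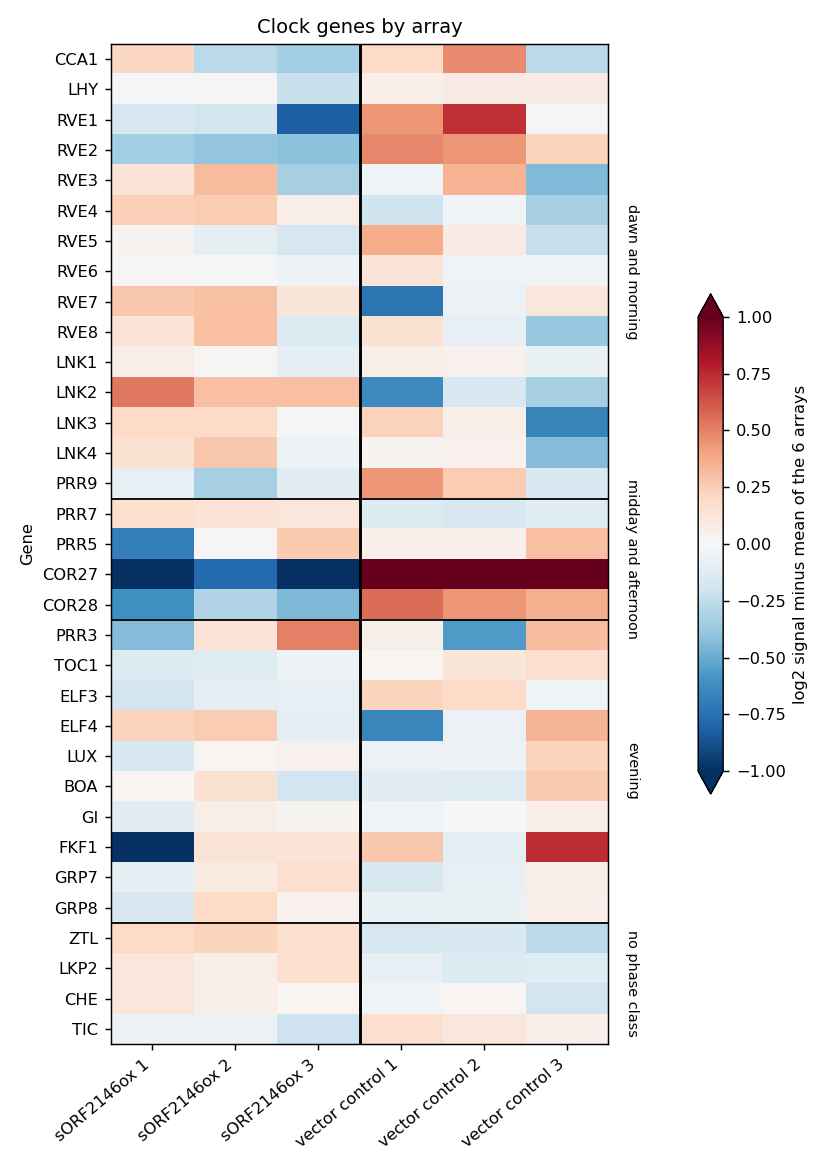
Log2 signal of each clock gene on each array minus the mean of the 6 arrays (colour, red above and blue below, capped at 1), genes down the page by phase class, sORF2146ox arrays left of the line. COR27, COR28, RVE2, LNK2 and ZTL split at the line, while CCA1, RVE3 and FKF1 vary within both groups.

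The map of genes by array shows the same within-group variation gene by gene. Clock genes had a median SD of 0.13 over overexpressor arrays and 0.15 over control arrays. All genes tested had 0.12 over overexpressor arrays and 0.17 over control arrays. FKF1 had the widest overexpressor spread, with an SD of 0.76, and ELF4 the widest control spread, at 0.50. At the other end RVE6, RVE2, PRR7 and ZTL each had an SD of 0.03 in the overexpressor.

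Other regulators that act on the clock, from a list of 24, gave 0 rises and 0 falls in limma among the 23 tested. Against 30.8% of all genes tested, 4 of the 23 had an unadjusted p under 0.05. These were ELF4-L4, a relative of ELF4 (0.41, SE 0.14), TCP22, an activator of CCA1 (0.24, SE 0.08), SRR1, a gene of red light signalling (0.21, SE 0.08), and ELF4-L2 (0.20, SE 0.08). The photoreceptor genes PHYA, PHYB, CRY1 and CRY2 differed by 0.20, -0.01, -0.06 and 0.10, and the PHYA groups did not overlap. Of the 23 genes, 7 were higher and 1 was lower with groups that did not overlap, against 23.0% and 17.6% of all genes tested, and the list median was 0.05. The remaining gene, AT3G21320, was above background on 2 of 3 control arrays and on 0 overexpressor arrays and was not tested.

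Among 13 clock outputs 0 passed in limma and 1, CAT3, had an unadjusted p under 0.05, against 30.8% of all genes tested. CAT3, an evening catalase, differed by -0.24 (SE 0.09, limma adjusted p = 0.14) with groups that did not overlap. CCL, a clock-controlled RNA of short life, differed by -0.09, PIF4 and PIF5, growth factors gated by the clock, by 0.18 and 0.14, and LHCB1.1, a light-harvesting protein, by 0.02. The B-box genes BBX24 and BBX19 differed by 0.19 and 0.15, also with groups that did not overlap (2 higher and 1 lower of the 13 genes, against 23.0% and 17.6% of all genes tested), and the auxin gene IAA29 by 0.27. The list median was 0.14.

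Across the series, 1209 of 23394 genes passed (5.17%), 588 higher and 621 lower, and the higher share of 48.6% was 74% with median scaling, 61.5% with quantile normalization and 61.4% in the deposited table. The probes well above background numbered 23270 to 24510 per array. All 5 leaf markers were well above background on all arrays, with a summed log2 level of 8.29 to 8.46 in the overexpressor and 8.44 to 8.51 in the control. Of the 5, 0 passed and 1, CA1, was lower with groups that did not overlap (-0.46, SE 0.11, limma adjusted p = 0.068), against 17.6% of all genes tested. All 6 root markers were also above background, at 2.57 to 2.76 in the overexpressor. In the control they were at 1.18, 2.73 and 2.94, where replicate 1 was the low array. Of the 6 root markers 0 passed. Groups did not overlap for 3 that were higher, CASP1 (0.92), RHD6 (0.78) and MYB36 (0.34), and 1 that was lower, TIP2;3 (-1.81), against 23.0% and 17.6% of all genes tested. Of 5 pathogen and stress markers WRKY46 fell, and their summed level was 0.63, 2.76 and 2.67 in the overexpressor and 4.41, 2.72 and 3.09 in the control. In that sum overexpressor replicate 1 was the low array and control replicate 1 the high one, while the others lay close together. Gene by gene, 3 of the 5 were lower with groups that did not overlap, against 17.6% of all genes tested. The 3 were WRKY46 (-4.26), NIMIN1 (-3.38) and SARD1 (-3.26), while PR1 and PR5 differed by -2.11 and -0.91 with overlapping groups. Of the 2 seed markers CRA1 was above background on none and EM1 on the 3 control arrays alone, with a summed level of -7.79 to -7.51 in the overexpressor and -5.11 to 0.80 in the control. The flower markers AP1 and LFY were above background on none, AP3 was so on 2 overexpressor and 3 control arrays, and their summed level was -6.00 to -5.07 in the overexpressor and -5.20 to -2.59 in the control. The part of these states in the clock differences was not tested. All 3 arrays of a group shared 1 slide that held no array of the other group, and slide effects and group effects cannot be told apart.

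The 5 calls depended on single arrays, as did the count over all genes, which was 1209 with all 6 arrays. Without overexpressor replicate 1, overexpressor replicate 3 or vector control replicate 2, 0 of the 33 clock genes passed, and the counts over all genes were 46, 50 and 28. Without overexpressor replicate 2 COR27 alone passed, with 48 over all genes. Without vector control replicate 1 or 3 COR27, COR28 and RVE2 passed, with 1196 and 1075 over all genes. The plot of alternatives shows the sizes, with COR27 as fitted values where its spot gives only a bound. Over the alternatives run RVE2 stayed between -0.83 and -0.62, LNK2 between 0.58 and 0.86 and ZTL between 0.29 and 0.48. COR28 lay between -0.98 and -0.17 and COR27 between -2.61 and -0.24 as fitted log2 differences, where the values near 0 came from both background corrections with an offset.

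**Figure D5:**
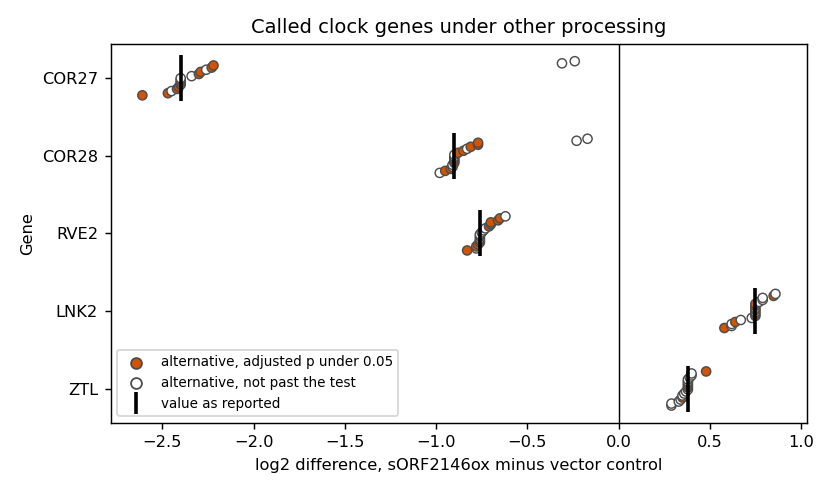
Log2 difference, sORF2146ox minus vector control (x axis), of the 5 clock genes past the test (y axis) under each alternative processing (points, filled where adjusted p is under 0.05) and as reported (bar). All points keep the sign of the reported value, and the COR27 and COR28 points nearest 0 are the corrections with an offset.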

How the data were processed

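Per the file headers, the authors scanned 6 one-colour arrays and extracted spot intensity with Agilent Feature Extraction 11.5.1.1. The deposited processed signal is background-subtracted and spatially detrended within an array. The deposited files also gave raw median intensities and the flags for outliers and background, which are other values coded as 0 or 1. A second deposited source, a table of linear intensity that is quantile normalized by its values, served as an alternative. Per the labels, Cy3 cRNA was made from 200 ng of RNA.

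The log2 processed signal was reduced by each array's 75th percentile over 35635 non-control probes. Outlier spots were set to missing, which touched 0 clock gene spots. A probe entered if well above background on all 3 arrays of a group (23523 did), and a gene took its probe with the highest mean. Groups were compared with limma 3.58.1 (lmFit, eBayes) in R 4.3.3, Benjamini-Hochberg adjusted, threshold 0.05. The code was tested on simulated data. Figures used matplotlib 3.10.9. Nothing in the labels says that replicates came from separate cultures beyond the series' word for biological replicates. The number of arrays limits the precision.

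The members and lists were chosen with earlier results of these data known. All 33 loci matched the RefSeq table of TAIR10.1. By the rule for named genes, all members are accounted for, with values per array for those past the test and for the core genes, and up to 4 genes by p from each list. Others, such as PHYB and RVE1, were named after their values were seen. Raw median signals replaced mean signals in normexp. Promoter motifs were not analysed here.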

Additional observations from a re-analysis of the deposited data

How the results depend on the processing

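The alternatives were 12 kinds of setting and 6 arrays left out. Counts of genes called given here are out of 23394, or 35475 with no filter on dim probes. The count was 4 with normexp, 1548 with background subtraction and 1023 with the percentile over detected probes. It was 2670 with median scaling, 188 with no filter, 5769 with array weights and 14 with the replicate block. With 1 array left out it ranged from 28 to 1196. Of the 33 clock genes, 0 were called with normexp and with the replicate block. The number was 3 with background subtraction and with the percentile over detected probes, and 7 with median scaling. It was 1 with no filter, 8 with array weights, and 0 to 3 with 1 array left out. Array weights, with 5769 of 23394 genes called, added RVE1, PRR7 and LKP2. Median scaling, with 2670 called, added RVE4 and PRR7. The labels do not say that replicate numbers pair the samples, and the deviations of arrays with the same number had correlations of -0.086, -0.00047 and -0.023. Calls passed in 11 of 17 alternatives for COR27, 10 of 18 for COR28, 11 of 18 for RVE2, 8 of 18 for LNK2 and 5 of 18 for ZTL, and PRR7 passed in 4 of 18. Slide could not be fitted as a block, since no slide held both groups.

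The midday median was -0.20 with normexp, -0.27 with subtraction and -0.27 where all 6 arrays had to be above background. Median scaling put the median of all genes at 0.13, so its small rises are relative to that. Of 593 member values under alternatives 33 turned sign, in 10 genes, and 0 of these passed. With normexp RVE6 was 0.036, LNK1 0.083, LUX 0.14 and BOA 0.078. With subtraction they were 0.042, 0.085, 0.14 and 0.10. Quantile normalization gave 0.007 for RVE6 and 0.085 for BOA, and the values as deposited gave 0.0071 and 0.085. Median scaling gave 0.055 for RVE6, 0.077 for LNK1, 0.03 for LUX, 0.084 for BOA and 0.078 for GI, and array weights -0.21 for RVE3. With 1 array left out, GI ranged from -0.052 to 0.031, RVE3 from -0.11 to 0.28, GRP8 from -0.03 to 0.15, LNK1 from -0.059 to 0.022, PRR3 from -0.11 to 0.38, BOA from -0.091 to 0.11, RVE6 from -0.072 to 0.013, ELF4 from -0.015 to 0.48, LNK3 from -0.02 to 0.43 and LUX from -0.12 to 0.023. The cause of these changes was not tested.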

Other observations

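A pair of clock genes on chromosome 5, PRR7 and RVE4, have 4 annotated genes between them, and every overexpressor array was above every control array for both after scaling, with differences of 0.28 and 0.37 that did not pass. Before scaling both overlapped, RVE4 with 3055, 2516 and 2497 in the overexpressor and 2650, 2831 and 2272 in the control. After scaling, the spike-in probes had a median difference of 0.25. On chromosome 2, PRR9 and CCA1 have 3 annotated genes between them and differed by -0.35 and -0.26, with overlapping groups. Gene order is that of RefSeq TAIR10.1.

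Ratios within an array need no scaling between arrays, and 4 more were chosen after the values were seen, with no test. RVE2 against the mean of CCA1 and LHY differed by -0.55. ZTL against TOC1 was 0.59 higher and ZTL against LKP2 was 0.16 higher. COR28 against PRR7 differed by -1.18. In each of the 4 the arrays of the groups did not overlap. For ZTL against TOC1 and COR28 against PRR7 this was bound to follow, as the genes of each pair already split the groups in opposite directions.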
